A study of Mus musculus with 4 samples.

Results

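The coagulation and fibrinolysis genes described here are F3, Procr, Tfpi2 and Plau, 4 of the 3891 genes read from the processed table. They were chosen by name, with earlier results of these cells known, for high or low UMI levels (UMIs are unique molecular identifiers, 1 per captured transcript) in particular stromal groups. The levels are therefore given as a description, without tests.

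The study profiled stromal cells of the small intestine from wild-type, male C57Bl/6 mice aged 8 weeks by the labels. Live cells without CD45, EpCAM and CD31 and with podoplanin (gp38) on their surface were sorted, so blood, epithelial and endothelial cells were to be removed and fibroblasts kept. They went into 2 10X Genomics libraries and 2 Smartseq2 plates. No treatment or mutant is part of this dataset, and the sources used here do not say how many mice went into a library, so differences between the libraries may be technical.

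Cells of the 10X libraries were grouped by the genes in which they held at least 1 UMI. Sox6 placed a cell among the subepithelial cells, which were then split by Wif1 and by Adamts18. Of the rest, cells with at least 3 of Inmt, Penk, Vit and Scara5 were called mesothelial-like, then cells with at least 3 of Chodl, Dner, Thbs2 and Ptn Fibin type, then cells with Grem1 crypt and cells with Lpl villus fibroblasts. In library 1 this gave 285 subepithelial, 331 mesothelial-like, 100 Fibin type, 1021 crypt and 611 villus cells, with 199 cells in no group. In library 2 it gave 2699, 1107, 697, 4837 and 3699 cells, with 1305 in no group. Among the subepithelial cells, 114 and 821 held Wif1, 18 and 178 held Adamts18, and 0 and 4 held both.

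Tissue factor, encoded by F3, is the membrane receptor that binds factor VII and starts clotting when blood leaves a vessel. It is known from the cells that wrap vessels and from fibroblasts under epithelia. Tissue factor pathway inhibitor 2 (Tfpi2) is a secreted Kunitz-type inhibitor of serine proteases that is held in the matrix. Procr encodes the protein C receptor, which presents protein C to the thrombin-thrombomodulin complex and so feeds the anticoagulant arm, and Plau encodes urokinase, which turns plasminogen into plasmin, the enzyme that dissolves fibrin.

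The 4 genes lie on different chromosomes of mm10 (GRCm38, GENCODE M21). F3 is at chr3:121723537-121735048 on the plus strand, Procr at chr2:155751117-155755471 on the plus strand, Tfpi2 at chr6:3962595-3988919 on the minus strand and Plau at chr14:20836660-20843385 on the plus strand. The principal transcripts hold 6, 4, 5 and 11 exons. The stretches just upstream of 3 starts are shown because F3 and Procr had their highest levels in the same cells and Tfpi2 did not. Of the 4 genes, 3 matched the RefSeq promoter table of GRCm38.p6, and Plau had no entry. Each stretch is read 5′ to 3′ on the gene's strand and ends before both the RefSeq and the GENCODE start (for Tfpi2, the start of the principal transcript). It spans chr3:121723287-121723536 for F3, chr2:155750967-155751116 for Procr and chr6:3968377-3968625 for Tfpi2. Capitals mark matches on either strand to TGANTCA, the letters of the AP-1 element and its near forms, or to GGGCGG, the GC box, both chosen with the sequences in view.
F3: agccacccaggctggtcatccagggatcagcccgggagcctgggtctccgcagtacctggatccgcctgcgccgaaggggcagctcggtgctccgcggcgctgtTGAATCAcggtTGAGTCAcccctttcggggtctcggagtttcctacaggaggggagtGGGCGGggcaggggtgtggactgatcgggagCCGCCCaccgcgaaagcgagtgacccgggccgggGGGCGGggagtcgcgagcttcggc
Procr: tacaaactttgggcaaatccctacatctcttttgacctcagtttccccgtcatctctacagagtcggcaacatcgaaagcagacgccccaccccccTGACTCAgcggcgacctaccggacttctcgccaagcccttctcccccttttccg
Tfpi2: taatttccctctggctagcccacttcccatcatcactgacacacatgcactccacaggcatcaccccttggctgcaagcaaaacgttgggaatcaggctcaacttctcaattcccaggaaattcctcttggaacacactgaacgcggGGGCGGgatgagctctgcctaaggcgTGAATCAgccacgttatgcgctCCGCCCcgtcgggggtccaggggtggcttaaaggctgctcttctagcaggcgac

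All 3 stretches held TGANTCA. F3 had 2 matches in 250 bases, Procr 1 in 150 bases and Tfpi2 1 in 249 bases. Windows of the same length with at least 1 match made up 6.73%, 3.95% and 6.72% of all promoters in the table, and those with 2 or more 0.338% for the length of F3. GGGCGG matched 3 times upstream of F3, 2 times upstream of Tfpi2 and 0 times upstream of Procr, against 33.0%, 32.8% and 16.9% of windows with at least 1 match. No match overlapped a match to the other motif. These are matches of letters in the windows shown.

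The 10X libraries held 2547 and 14344 cells with medians of 8757 and 6874 UMIs per cell (22268547 and 102654944 UMIs in all), and 7 cell barcodes occurred in both. Of 5 markers per group that the grouping did not use, 5 were highest in their own group for the mesothelial-like, Fibin type and villus cells, and 4 for the subepithelial cells, where Tnc was higher in the Fibin type, in each library. For the crypt cells 0 of 5 were: Ackr4, Col14a1, Prss23, Svep1 and Il6 were all highest in the mesothelial-like cells. The crypt cells are therefore cells with Grem1 that failed the earlier rules, and the name is kept only as a short form. The mesothelial-like cells did not carry the markers of mesothelium proper as a set. Of Msln, Upk3b, Krt19, Lrrn4 and Wt1, 4 were at 0 in library 1 and 2 in library 2. Of these cells, 0 held enough of the markers to be called by that list. Wt1 went the other way and was highest in this group, at 0.349 and 0.454 against at most 0.0706 and 0.0364 in the other groups. In library 2, 58 of the 2699 subepithelial cells held at least 3 of 5 enteric glia markers (Sox10, S100b, Erbb3, Cdh19, Fabp7), 56 of them without Wif1 and Adamts18, against 1 of 285 cells in library 1.

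F3, the trigger of clotting, was highest in the subepithelial cells. Its level (mean over cells of UMIs per 10,000) there was 1.53 in library 1 and 1.49 in library 2. Mesothelial-like cells held 0.816 and 0.992, crypt cells 0.533 and 0.417, villus cells 0.363 and 0.425, and Fibin type cells 0.191 and 0.156. The libraries thus gave the same order except for crypt and villus cells, whose ranges overlapped. Against all other fibroblasts (0.511 and 0.464), the subepithelial level was 2.99-fold and 3.22-fold higher. Summed UMIs gave 3.01-fold (exact 95% interval 2.69 to 3.37) and 3.28-fold (3.12 to 3.44). Such intervals cover counting error only, here and throughout. Without the glia-marker cells, in which F3 was at 2.65 in library 2, the subepithelial level was 1.53 and 1.47.

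F3 was not uniform within the subepithelial cells. It stood at 2.51 and 2.82 in the Adamts18-positive cells, at 1.62 and 1.59 in the Wif1-positive cells and at 1.35 and 1.31 in cells with neither. No ranges of the libraries overlapped among these 3 sets. Each range is 2 values, and the share of all genes without overlap was not counted, here or below. A UMI of F3 was found in 15 of 18 and 128 of 178 Adamts18-positive cells (83.3% and 71.9%), in 67.5% and 63.9% of Wif1-positive cells, and in 13 of 100 and 66 of 697 Fibin type cells. The highest single cell held 24 UMIs, among the subepithelial cells of library 2. Between cells of low and high total UMIs the subepithelial level differed little, at 1.45 and 1.61 below and above the median in library 1 and 1.52 and 1.46 in library 2.

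Procr, the protein C receptor, was also highest in the subepithelial cells, by a larger margin than F3. Its level was 1.28 and 1.18 in subepithelial cells, 0.460 and 0.200 in mesothelial-like, 0.210 and 0.189 in villus, 0.115 and 0.116 in crypt and 0.0646 and 0.0395 in Fibin type cells. The subepithelial level was 6.54-fold and 8.12-fold that of all other fibroblasts (0.196 and 0.146). A UMI was present in 57.9% (51.9 to 63.7) and 48.7% (46.8 to 50.6) of subepithelial cells. Subepithelial cells were 11.2% and 18.8% of the cells and held 47.7% and 69.4% of all Procr UMIs, and 32.7% and 48.8% of the F3 UMIs. Procr was thus the member most concentrated in them.

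Outside the subepithelial cells, the Procr UMIs sat in few cells. In crypt cells of library 1, the 11 cells with the most Procr held 60.5% of the UMIs, and 1 held 22. In mesothelial-like cells of library 1, the top 4 of 331 cells held 44.5%, and without them the level was 0.268 in place of 0.460. In subepithelial cells the top 1% held 8.97% and 8.93%. In library 2 the top 12 of 1107 cells held 34.8%, and the level went from 0.200 to 0.136 without them, so library 1 remained the higher. The comparison of that group with the other fibroblasts pointed in opposite directions (1.5-fold higher in library 1, 1.88-fold lower in library 2).

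Tfpi2, the matrix-bound inhibitor, was low in the subepithelial and Fibin type cells. Mesothelial-like cells held 0.963 and 0.726, crypt cells 0.508 and 0.556 and villus cells 0.163 and 0.245. Fibin type cells were at 0.163 and 0.0860 and subepithelial cells at 0.0303 and 0.137. Against the other fibroblasts (0.462 and 0.431) the subepithelial level was 15.3-fold lower in library 1 and 3.16-fold lower in library 2. The direction was shared, but the size was not: the subepithelial level of library 2 was the higher of the pair, and its glia-marker cells held next to none (0.0168). A UMI was found in 8 of 285 (2.81%) and 171 of 2699 (6.34%) subepithelial cells, in 28.4% and 25.2% of mesothelial-like cells and in 21.1% and 17.8% of crypt cells. Among 58 cells of library 2 that held at least 3 of 6 immune markers, taken as a measure of free RNA, 3.45% (0.420 to 11.9) had a UMI of Tfpi2, at a median of 4720.5 UMIs per cell. The subepithelial share of library 2 lies inside that interval, at a median of 8299 UMIs per cell, although 16 of those cells held at least 4 UMIs of Tfpi2 and the highest held 12. The share of library 1, for which too few immune-marker cells were found, is below the library 2 value. Background was not subtracted from any level, fold or ratio. The same immune-marker cells had F3 in 3.45%, Procr in 3.45% and Plau in 1.72% (0.0436 to 9.24). Of the 58 cells, 44 fell in no group, and these had F3 and Plau in 0 (0 to 8.04), Procr in 2 and Tfpi2 in 1, so part of the measured background comes from cells that also passed a group rule. In library 2, the shares inside the intervals of all 58 cells are those of F3 in Fibin type cells (9.47%), of Procr in every group but the subepithelial cells (3.16% to 9.39%), of Tfpi2 in villus (10.2%), Fibin type (5.88%) and subepithelial cells, and of Plau in every group but the mesothelial-like cells (0.765% to 6.04%).

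The crypt cells were not even in Tfpi2. Those with Ackr4, a scavenger receptor for chemokines, held 0.687 and 0.712, and those with Il6 but no Ackr4 held 0.714 and 0.624. Crypt cells with neither held 0.168 and 0.234, within the range of the villus cells. This split was made after the values were seen.

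Plau, encoding urokinase, was the rarest member, with 174 UMIs in all of library 1 and 479 in library 2. Its level was 0.278 and 0.204 in mesothelial-like cells and 0.136 and 0.0923 in subepithelial cells. Crypt cells held 0.0348 and 0.0129 and villus cells 0.0471 and 0.0176. Of the Fibin type cells, 0 of 100 in library 1 had a UMI (0%, 0 to 3.62), and 7 of 697 did in library 2. Mesothelial-like cells held 44.8% and 34.7% of its UMIs and subepithelial cells 25.3% and 44.1%. A UMI was found in 14.5% and 11.3% of mesothelial-like cells and in 11.6% and 6.04% of subepithelial cells. In library 2 the mesothelial-like share lies above the interval of the immune-marker cells and the subepithelial share inside it, at unequal depths.

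**Figure D1:**
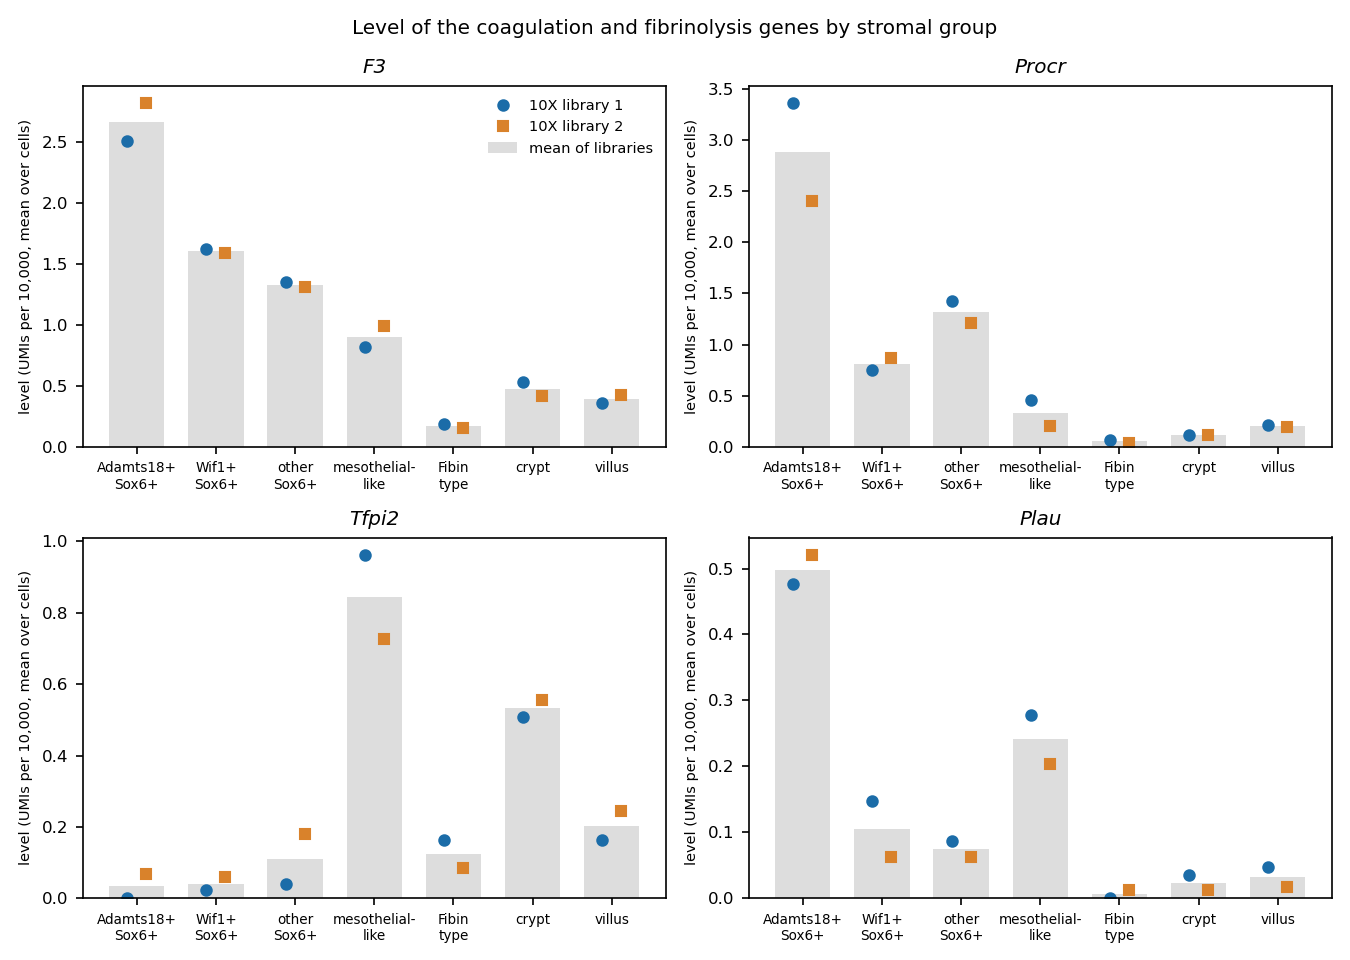
Level of each gene (y axis, mean over cells of UMIs per 10,000) in 7 groups of 10X cells (x axis; Sox6+ cells are the subepithelial cells), with circles for library 1, squares for library 2 and grey bars for the mean of both. F3, Procr and Plau are highest in Adamts18-positive cells, at means of 2.67, 2.88 and 0.498, and Tfpi2 in mesothelial-like cells, at 0.845.

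A gene was counted as past 2-fold when it was at least 2-fold higher, or lower, in both libraries, among genes with a UMI in at least 5% of the cells of either group in each library. In subepithelial cells against other fibroblasts, all 4 members passed the filter, F3 and Procr were higher and Tfpi2 lower. Across the 1661 genes tested, 22.3% were higher and 18.1% lower by this rule. Plau was 1.79-fold and 2.63-fold higher and so fell short in library 1. It passed in both when summed UMIs were divided by summed totals (2.09-fold, 1.45 to 2.97, and 2.64-fold, 2.19 to 3.18). The members were chosen from this contrast among others, and nothing is read from the counts.

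In mesothelial-like cells, all 4 members passed the filter and 2 were higher, Tfpi2 (3.02-fold and 2.15-fold) and Plau (5.45-fold and 6.32-fold). None was lower. Of 1580 genes 7.91% were higher and 16.9% lower. F3 was 1.35-fold and 1.53-fold higher than in all other fibroblasts, a group that includes the subepithelial cells. Tfpi2 and Plau occurred together in 3.63% and 2.44% of the mesothelial-like cells, where the product of their shares is 4.12% and 2.85%. The intervals (1.89 to 6.25 and 1.61 to 3.53) span the products. In mesothelial-like cells of libraries 1 and 2, the top 4 of 331 and 12 of 1107 cells held 36.5% and 25.1% of the Tfpi2 UMIs. The highest cell, in library 1, held 51. Without these top cells the level was 0.708 and 0.551 in place of 0.963 and 0.726. The other fibroblasts, with all cells kept, were at 0.319 and 0.337. Tfpi2 was no longer past 2-fold when cells that pass more than 1 group rule were left out, which kept 18 and 60 mesothelial-like cells.

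Adamts18 marks the villus tip telocytes, large subepithelial cells with long processes, and these cells had the highest levels of 3 members. Of the 3 members that passed the filter in Adamts18-positive against Adamts18-negative subepithelial cells, Procr and Plau were higher. Here 5.73% of 1606 genes were higher and 6.60% lower. Procr was at 3.36 and 2.40 against 1.14 and 1.10 (2.94-fold and 2.18-fold). Plau was at 0.476 and 0.521 against 0.113 and 0.0621 (4.23-fold and 8.40-fold), on 10 and 70 UMIs. F3 was 1.72-fold and 2.02-fold higher and fell short in library 1. The highest Adamts18-negative level of each of these genes stayed below the lowest Adamts18-positive level, on 2 values per set.

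Every one of the 18 Adamts18-positive cells of library 1 had a Procr UMI (100%, 81.5 to 100), as did 145 of 178 in library 2 (81.5%, 75.0 to 86.9). Tfpi2 was found in 0 of 18 cells (0%, 0 to 18.5) and in 10 of 178 (5.62%). Of these cells 22.2% and 24.2% held at least 2 of 4 markers shared with interstitial cells of Cajal (Kit, Ano1, Etv1, Nrn1), against 4.91% and 4.82% of all subepithelial cells. With all cells that hold markers of another cell type left out, Procr differed by 1.4 and 0.99 on the log2 scale, just under 2-fold in library 2. An Adamts18-negative cell can be one in which the UMI was missed, so these differences are between sets by detection.

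Wif1, a secreted Wnt antagonist, divides the subepithelial cells in another way. Of the 3 members that passed the filter in Wif1-positive against Wif1-negative cells, 0 were past 2-fold in either direction, beside 2.27% of 1583 genes higher and 8.09% lower. F3 was level, at 1.10-fold and 1.09-fold, and Plau was at 1.15-fold and 0.599-fold. Procr was lower in Wif1-positive cells in both libraries, at 0.751 and 0.867 against 1.64 and 1.32 (2.18-fold and 1.53-fold lower). F3 and Procr therefore differed here: Wif1-positive cells ranked above the cells with neither marker in F3 and below them in Procr, with no overlap of the libraries.

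Fibin type cells were low in every member. F3, Procr and Tfpi2 passed the filter and all 3 were lower than in other fibroblasts in both libraries, beside 26.1% of 1669 genes lower and 16.7% higher. F3 was 3.43-fold and 4.54-fold lower and Tfpi2 2.58-fold and 4.49-fold lower. Procr was 9.59-fold lower in library 2, and its 3 UMIs in library 1 give a ratio of 0.0920 (0.0189 to 0.270). In library 1, 1 cell held 77.8% of the Tfpi2 UMIs of the group, and without it the level was 0.0153 in place of 0.163. Tfpi2 was not past 2-fold in both libraries after thinning or with 2 of 4 markers asked of the Fibin type, nor Procr without the cells that pass more than 1 rule. Of these cells, 82.0% and 82.5% had a UMI of no member, against 19.6% and 23.2% of subepithelial cells.

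Crypt and villus cells differed in 1 of the 3 members that passed the filter: Tfpi2 was 3.12-fold and 2.27-fold higher in crypt cells, beside 7.84% of 1428 genes higher and 6.79% lower. Procr was lower in crypt cells, 1.83-fold and 1.62-fold, and F3 was 1.47-fold and 0.982-fold. In library 2 the Procr shares of both groups and the Tfpi2 share of villus cells lie inside the background intervals of the immune-marker cells. Among cells at or below their library's median of 10 summed stress genes (Fos, Fosb, Jun, Junb, Egr1, Atf3, Ier2, Hspa1a, Hspa1b and Dnajb1), the log2 difference of Tfpi2 was 0.82 and 0.58, under 2-fold in both libraries, against 1.64 and 1.18 in all cells. Within the villus cells Tfpi2 was at 0.0841 and 0.142 below the group's own median of these genes and at 0.242 and 0.347 above it. Within the crypt cells it was at 0.344 and 0.449 below and 0.673 and 0.663 above. In the subepithelial cells it was at 0.00632 and 0.0508 below and 0.0544 and 0.222 above. The sides were not matched between groups. In library 1 the median of the summed stress genes below and above was 3.97 and 73.2 in subepithelial cells. It was 57.9 and 232 in crypt and 6.44 and 165 in villus cells. Tfpi2 was thus higher in the cells of these 3 groups with more stress transcripts, and the part of these transcripts in the differences between groups was not tested.

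Subepithelial cells are deeper than crypt and villus cells, so detection was repeated after thinning each cell to 2000 UMIs, which left out 2 and 28 subepithelial cells. F3 was then found in 23.3% (18.5 to 28.7) and 22.8% (21.3 to 24.5) of subepithelial cells and in 9.15% and 7.68% of other fibroblasts. Procr was found in 20.1% and 19.1% against 2.46% and 2.47%. Tfpi2 was found in 0.707% and 1.95% against 6.69% and 6.13%. All 3 genes thus kept their direction at equal depth. Plau was too sparse at this depth, with 0 of 18 Adamts18-positive cells in library 1 and 7.34% in library 2.

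**Figure D2:**
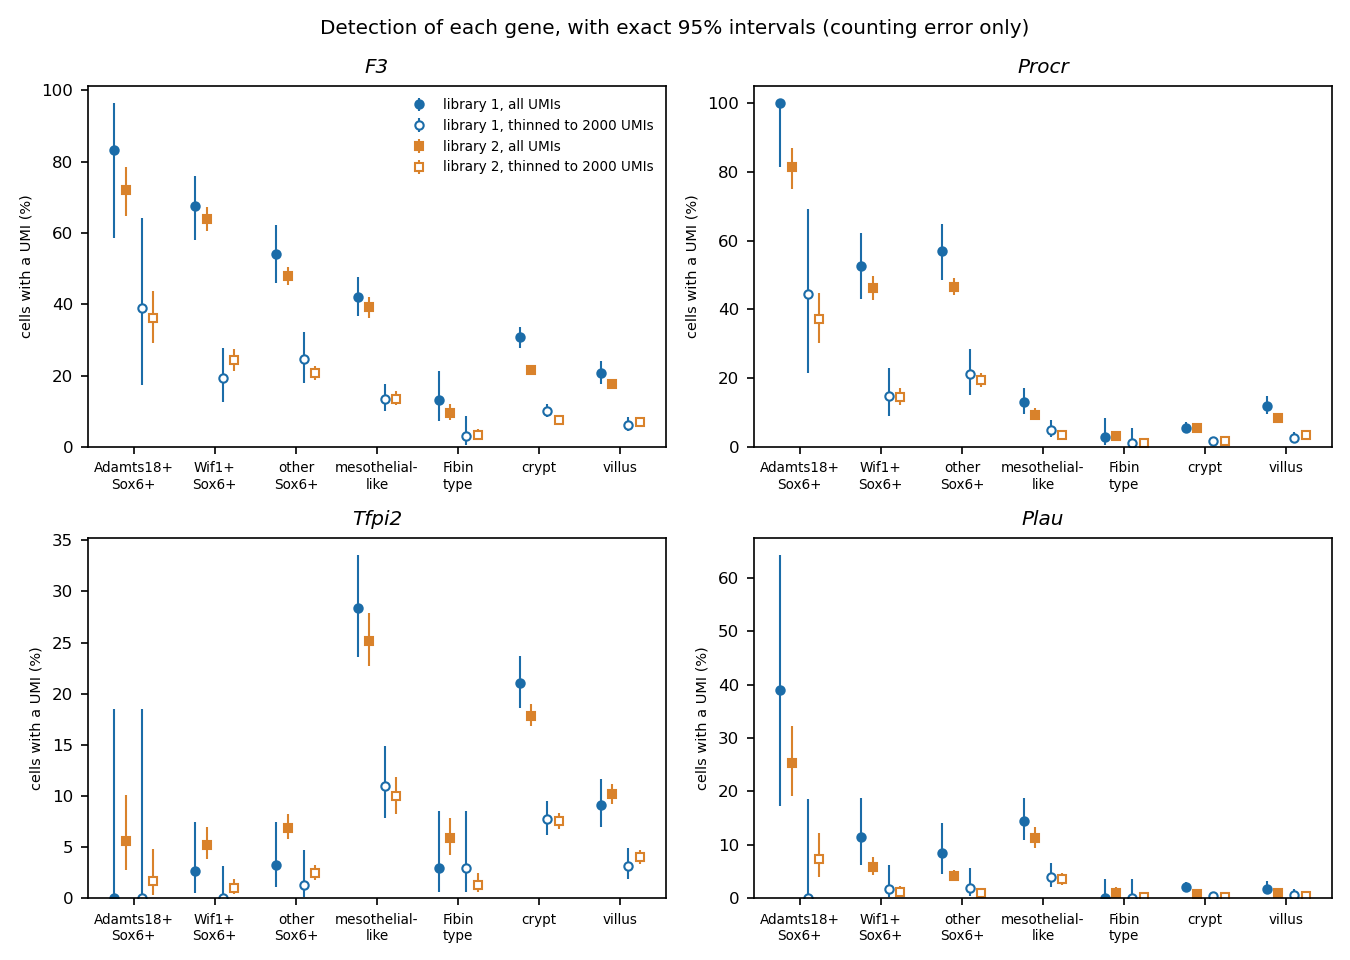
Share of cells with a UMI of each gene (y axis, percent) in 7 groups (x axis; Sox6+ cells are the subepithelial cells), with filled symbols for all UMIs, open symbols for cells thinned to 2000 UMIs, and bars for exact 95% intervals. After thinning, F3 and Procr are still highest in Adamts18-positive cells, at 36.2% and 37.3% in library 2.

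F3 and Procr were often found in the same cells. Both were present in 112 of 285 subepithelial cells of library 1 (39.3%, 33.6 to 45.2) and in 781 of 2699 in library 2 (28.9%, 27.2 to 30.7). The product of their separate shares is 35.5% and 26.5%, so the excess was 1.11-fold and 1.09-fold. In cells thinned to 2000 UMIs the joint share was 7.77% (4.94 to 11.5) and 5.05% (4.25 to 5.95) against products of 4.70% and 4.35%. With all UMIs the product lies inside the interval in library 1 and below it in library 2. After thinning it lies below the interval in library 1, where the excess is 1.65-fold, and inside it in library 2, at 1.16-fold. In the other groups of library 2, with all UMIs, the excess was 1.38-fold in mesothelial-like, 1.29-fold in crypt and 1.47-fold in villus cells, each with the product below the interval, and after thinning the product lay inside the interval in all 3. In library 1 the product lay inside the interval in these 3 groups at both depths, with all-UMI ratios of 1.05, 1.43 and 1.06. In Fibin type cells of library 2, on 2 cells with both, the ratio was 0.960. 

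Within Adamts18-positive cells both genes were present in 83.3% (58.6 to 96.4) and 62.4% (54.8 to 69.5). Products of the shares there are 83.3% and 58.6%. All of F3, Procr and Plau were present, without Tfpi2, in 7 of 18 and 29 of 178 such cells (38.9% and 16.3%). In the subepithelial cells as a whole, cells with Plau had F3 more often (78.8% and 73.6%) than cells without (59.1% and 53.1%), and Procr more often as well (75.8% and 69.3% against 55.6% and 47.4%). After thinning, these shares in library 2 were 28.2% against 22.8% for F3 and 30.8% against 18.9% for Procr, and library 1 had too few cells with Plau. Procr was found in 37.5% and 38.0% of subepithelial cells with Tfpi2 and in 58.5% and 49.4% of those without, on 8 and 171 cells with Tfpi2.

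**Figure D3:**
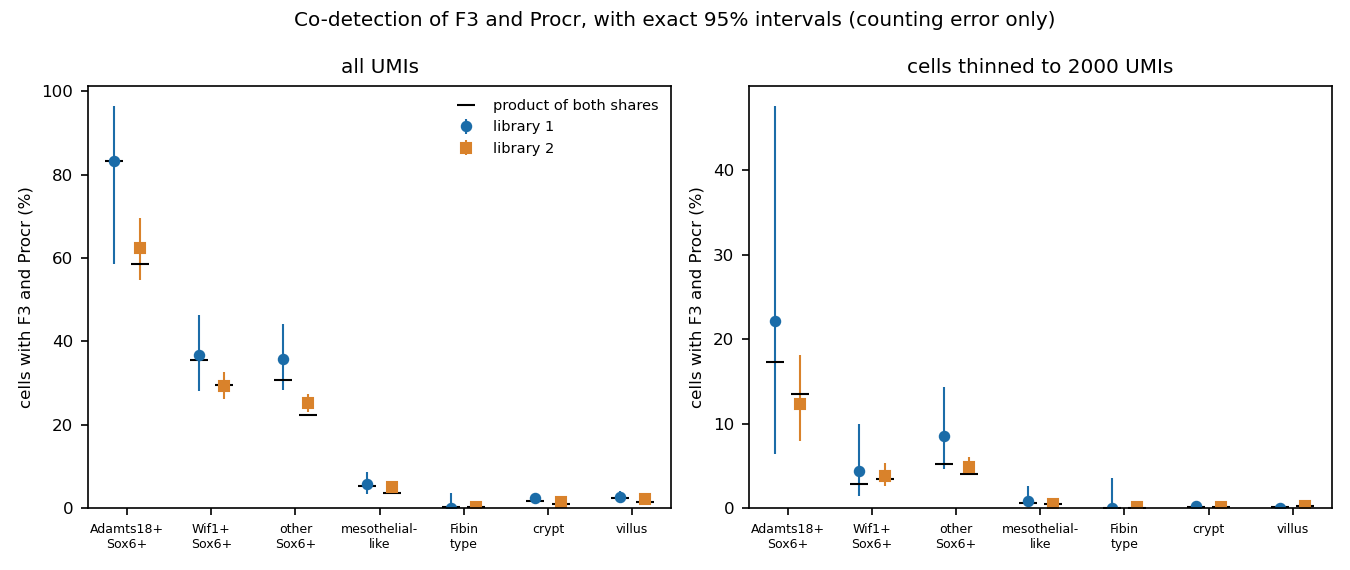
Share of cells with a UMI of both F3 and Procr (y axis, percent) by group (x axis; Sox6+ cells are the subepithelial cells), for all UMIs on the left and cells thinned to 2000 UMIs on the right, with exact 95% intervals and black dashes for the product of the separate shares. Joint detection is highest in Adamts18-positive cells, at 83.3% and 62.4%. With all UMIs of library 2 the product lies below the interval in mesothelial-like, crypt and villus cells, among others. In library 1 it lies inside the interval in these 3 groups.

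F3 was set beside Tfpi2 as F3 UMIs per Tfpi2 UMI, a ratio within each group that is set only against the same ratio in other groups. It compares 2 transcripts, and inhibition of tissue factor was not measured. Subepithelial cells had 47.7 (25.7 to 100) in library 1 and 11.9 (10.6 to 13.5) in library 2. Villus cells had 2.41 and 1.67, crypt cells 0.988 and 0.799, and mesothelial-like cells 0.675 (0.569 to 0.8) and 1.36 (1.22 to 1.51). Subepithelial cells thus stood apart from every other group in both libraries. The libraries differed in size in the subepithelial cells and in the side of 1 on which the mesothelial-like cells fell. Adamts18-positive cells had 29.5 (17.7 to 53.1) in library 2 and 50 F3 UMIs against 0 of Tfpi2 in library 1.

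**Figure D4:**
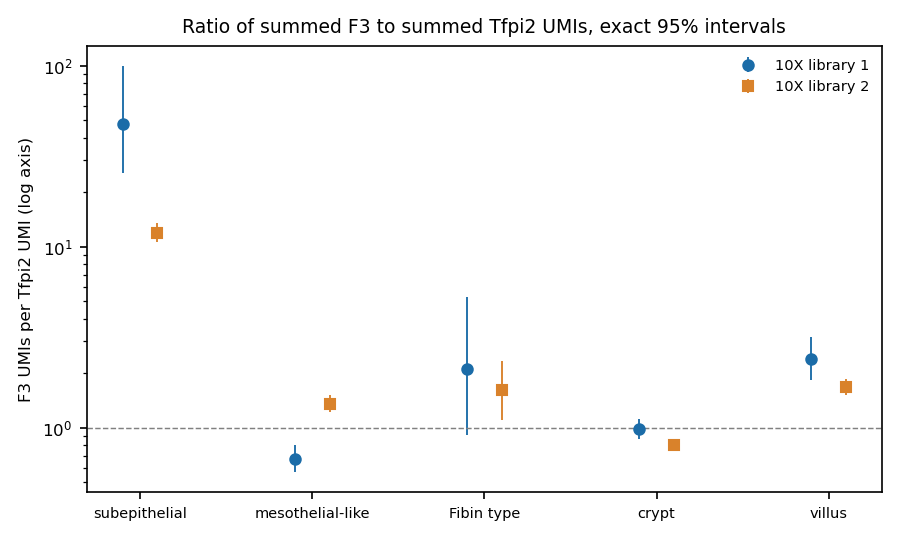
Summed F3 UMIs per summed Tfpi2 UMI (y axis, log scale) in the 5 groups (x axis), with circles for library 1, squares for library 2, bars for exact 95% intervals and a dashed line at 1. Subepithelial cells lie at 47.7 and 11.9, above all other groups.

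Likeness was measured by Pearson's r of the log2 level (plus 0.1) over 7 groups in each library, among 1931 other genes, and ranked by the lower of the 2 values. With 7 groups that share libraries, r is a description. Nearest to F3 were Pcsk6, a proprotein convertase (0.955 and 0.957), the transcription factor Osr2 (0.951 and 0.980) and the basement membrane collagen Col4a5 (0.944 and 0.939), and Procr ranked 6. Nearest to Procr were Cav1, the coat protein of caveolae (0.967 and 0.997), the retinol carrier Rbp4 (0.960 and 0.983) and Lrrc23 (0.954 and 0.967), with F3 at rank 12. Nearest to Tfpi2 were Sat1, an enzyme of polyamine breakdown (0.977 and 0.995), the cytokine Il6 (0.983 and 0.973) and Cpxm1 (0.973 and 0.970). Nearest to Plau were Eps8, an actin regulator (0.916 and 0.957), and the glutathione reductase Gsr (0.972 and 0.870), with F3 at rank 4. Tfpi2 was opposite to F3 (-0.514 and -0.249) and to Procr (-0.611 and -0.486).

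Of 39 other genes of clotting and fibrinolysis, listed by role, 11 were among the genes read. In subepithelial cells 9 passed the filter, 4 were higher and 2 lower than in other fibroblasts, beside 22.3% and 18.1% of all genes tested. The higher genes were all receptors. Thbd, thrombomodulin, the partner of the protein C receptor, was at 8.94 and 8.82 against 1.94 and 2.22. The thrombin receptor F2r was at 3.52 and 3.17 against 0.923 and 1.34. F2rl1 was 6.33-fold and 2.55-fold higher, and F2rl3 9.96-fold and 11.3-fold, both at levels near 0.1. The lower genes were the urokinase receptor Plaur (4.33-fold and 3.99-fold lower) and Serpine2, an inhibitor of thrombin and other serine proteases (19.7-fold and 3.69-fold). Thbd differed little among the subepithelial sets, with means of 9.34 in Adamts18-positive, 8.88 in Wif1-positive and 8.90 in other cells, where Procr ranged from 2.88 to 0.809.

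In mesothelial-like cells 7 of the 11 genes passed the filter, 1 was higher and 1 lower, beside 7.91% and 16.9% of all genes tested. Plat, the tissue-type plasminogen activator, was 2.02-fold and 2.31-fold higher, and F2r was 4.28-fold and 3.58-fold lower. Both plasminogen activators, Plau and Plat, were thus higher in this group than in the other fibroblasts, but neither peaked in it. Mean Plat was 2.84 in Fibin type against 2.54 in mesothelial-like cells. Mean Plau was 0.498 in Adamts18-positive against 0.241 in mesothelial-like cells. In Fibin type cells 8 passed, beside 16.7% of all genes higher and 26.1% lower: F2r, F2rl1, Serpine2 and Plat were higher and Plaur and S100a10, a plasminogen receptor subunit, lower. F2r was at 4.47 and 5.21 there, in the group where F3 was lowest. Between crypt and villus cells 7 passed the filter and 0 were past 2-fold in both libraries, beside 7.84% of all genes higher and 6.79% lower. Within subepithelial cells 7 passed in each split and 1 was higher, beside 5.73% of all genes for Adamts18 and 2.27% for Wif1: F2rl3 was higher with Adamts18 (3.39-fold and 2.07-fold, on 6 and 34 UMIs) and F2rl1 higher with Wif1 (2.22-fold and 2.68-fold). F5 and Vwf stayed under a mean of 0.05 in all 7 groups.

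**Figure D5:**
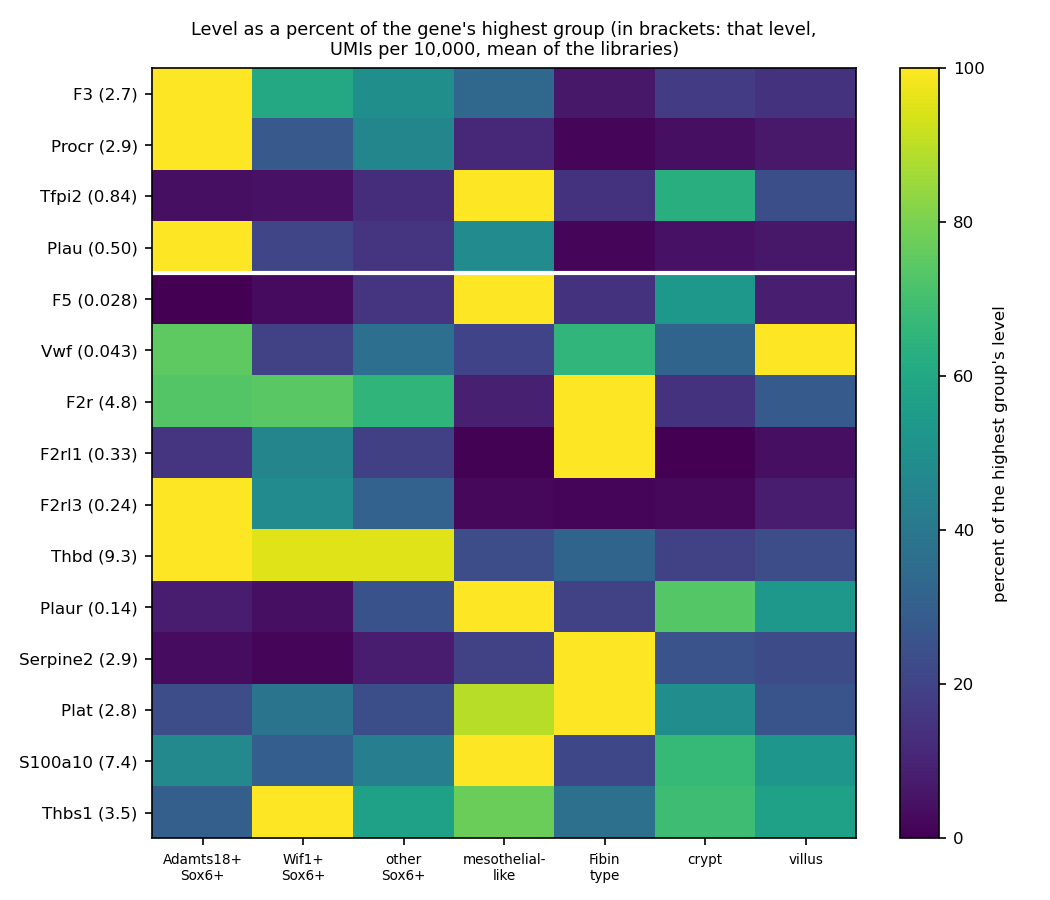
Mean level over both libraries of the 4 members (above the white line) and 11 other genes of clotting and fibrinolysis (below it) in 7 groups (x axis; Sox6+ cells are the subepithelial cells), coloured as a percent of the gene's highest group, whose level in UMIs per 10,000 stands in brackets. F3, Procr, Plau, F2rl3 and Thbd peak in Adamts18-positive cells, and Tfpi2 and Plaur in mesothelial-like cells.

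The Smartseq2 plates held 360 and 379 cells, with values that the authors' integration had corrected towards the 10X cells, 25.1% and 26.1% of them below 0. Depth cannot be read from them, and the correction ties them to the 10X libraries. With the same rules at a corrected natural log value above 0.5, the plates gave 35 and 58 subepithelial cells. F3 averaged 0.47 and 0.82 there, 0.49 and 0.51 in mesothelial-like, 0.30 and 0.28 in crypt and 0.14 and 0.20 in villus cells. On plate 1 the subepithelial F3 mean therefore did not exceed the mesothelial-like one, on 35 and 17 cells with SDs over cells of 0.66 and 0.46. Procr averaged 0.40 and 0.56 in subepithelial cells and 0.11 or less in every other group with at least 10 cells on both plates. Tfpi2 averaged 0.20 and 0.23 in mesothelial-like, 0.18 and 0.22 in crypt, 0.08 and 0.07 in subepithelial and 0.05 and 0.06 in villus cells, so villus and subepithelial cells stood in the opposite order to the 10X libraries. Plau averaged 0.17 and 0.08 in mesothelial-like cells, 0.07 and 0.09 in subepithelial cells and 0.12 in the 16 Fibin type cells of plate 2, so its order differed from that of the 10X libraries. Adamts18-positive cells were under 10 on each plate and are not given.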

How the data were processed

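Stromal cells of 2 10X libraries and 2 Smartseq2 plates were read from 1 table. The deposited values are natural log values: per the labels and the study's methods, the authors aligned reads to mm10 (Cell Ranger 3.1.0, and TopHat2 2.1.1 and featureCounts for Smartseq2, by the submitters' processing notes), filtered cells, scaled each cell to its total UMI and integrated both platforms with Seurat. The last row of the table stops short and was dropped; genes that would follow are not analysed here. In the 10X cells 100% of values above 0 were whole multiples of the cell's smallest value (tolerance 0.01), so UMIs were recovered. Cells came from the library named by the sample title.

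The members and lists were chosen with earlier results of these data known. Named genes are the members, a list of 39 pathway genes and the 3 genes most like each member. Items on these lists and on the glia list that are not reported here were left out. Levels are means over cells of UMIs per 10000, shares have exact 95% intervals (Clopper-Pearson), and ratios of UMIs have exact conditional intervals. A group at 0 was set to 3 UMIs over the group for 2-fold calls, and where a group holds 1 to 3 UMIs only the ratio of summed UMIs with its interval is given. The genes used for grouping were left out of the backgrounds. No test was run, as cells are not replicates and there are 2 libraries. Thinning used seed 7. No doublet caller was run, and an alternative leaves out the deepest cells. The software was scipy 1.17.1, numpy 2.4.6, matplotlib 3.10.9 and pandas 2.3.3 under Python 3.11.15.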

Additional observations from a re-analysis of the deposited data

How the results depend on the processing

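Each count of members past 2-fold was recomputed under 11 alternatives. For 10 called members with at least 4 UMIs in both groups of each library, all 104 values under the alternatives kept the direction of the reported value, which those without 1 library or without the filter could not lose. The count in Adamts18-positive cells went from 2 to 1 with cells thinned to 2000 UMIs, where Plau had too few UMIs, and to 1 (Plau) without cells that hold markers of another cell type. The count in crypt against villus cells went from 1 to 0 among cells low in stress genes, and that in mesothelial-like cells from 2 to 1 (Plau) without the cells that pass more than 1 group rule, which left 18 and 60 mesothelial-like cells. The causes were not tested. Leaving out 1 library gave counts of 3 to 4 (subepithelial), 2 to 4 (Adamts18), 1 to 1 in place of 0 (Wif1: Tfpi2 lower in library 2 alone, Procr lower in library 1 alone), 2 to 2 (mesothelial-like), 3 to 4 (Fibin type) and 1 to 1 (crypt against villus). In library 2 alone, F3 (higher) and Tfpi2 (lower, on 15 UMIs, with a summed ratio of 0.737, 0.407 to 1.24) also passed in Adamts18-positive cells. Leaving out glia-marker cells, an alternative added after seeing the data, kept F3, Procr and Tfpi2 past 2-fold in subepithelial cells. No paired analysis was run, as the results come from no test, and the folds within each library are given as values. Depth limits Plau, of which 18 Adamts18-positive cells of library 1 held 10 UMIs, and Tfpi2, of which they held 0.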

Other observations

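Cells of other types in the sort also carried members. In library 2, 103 cells with at least 3 enteric glia markers held F3 at 2.31 UMIs per 10,000, with a UMI in 60 of them (58.3%, exact 95% interval 48.1 to 67.9), and Procr, Tfpi2 and Plau at 0.0293, 0.00948 and 0.0381. Glia-marker cells outside all groups, 34 in number, held F3 at 2.21. In library 1 only 4 cells held these markers, and 0 had F3. In 13 cells of library 2 with at least 3 of 6 endothelial markers (Pecam1, Cdh5, Kdr, Plvap, Egfl7, Esam), Procr was at 2.37 with a UMI in 6 (46.2%, 19.2 to 74.9) and 26 of the 32 UMIs in 1 cell, and F3, Tfpi2 and Plau had 0 UMIs.

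On Smartseq2 plate 1, 68 cells fell in no group, against 6 on plate 2, although the sort removed CD31-positive cells. Their mean corrected Procr value was 0.78, above the 0.40 of the subepithelial cells of that plate, with F3 at 0.03. All 6 endothelial markers averaged above 0.5 in these cells (list mean 1.41, against 0.09 in the grouped cells), and the 5 glia markers averaged 0.08.

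Plau in mesothelial-like cells was lower in the cells above the group's median of summed stress genes, at 0.119 against 0.437 in library 1 and 0.143 against 0.265 in library 2. Tfpi2 in the same cells went the other way between libraries, at 0.888 against 1.04 and 0.781 against 0.672.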
